A study of Homo sapiens with 12 samples.

Results

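The DDX and DHX genes encode RNA helicases, named after the DEAD-box and DEAH-box amino acids of their ATPase core. Members were chosen by name alone: protein-coding genes outside chromosome Y in the deposited gene table whose symbol is DDX or DHX followed by a number and, at most, one letter. This gave 54 of the 58735 listed genes, 38 DDX and 16 DHX, and 48 of them passed the filter of at least 1 FPKM in at least 3 samples that a gene needed to be tested. FPKM counts sequenced fragments relative to gene length and library size. No measured value enters the rule, but the geniposide comparisons of these libraries were already known when the family was taken up, so the counts of members per direction are descriptions.

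The study compared Huh7 and HepG2, human lines labelled as hepatoma cells, each left untreated as a control or treated with geniposide for 48 h, and poly(A) RNA was sequenced in 3 samples of each of the 4 groups. Geniposide is an iridoid glycoside from gardenia fruit, and the series title places it in a study of DUOX1 and ferroptosis, an iron-dependent form of cell death. No agent, allele or dose beyond this is given in the labels. They do not say whether a group's 3 samples are separate cultures, so the spread among them could be technical only. The p-values refer to this spread pooled over all 4 groups, so those of one line also carry the spread of the other.

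RNA helicases use ATP to open short duplexes, to release proteins from RNA or to clamp onto it. DEAD-box proteins act locally on short helices, DEAH-box proteins mostly travel along a strand, and many of both kinds work at one fixed step of ribosome assembly, splicing, export, translation or decay. Proliferating cells keep most of them on, because ribosomes and spliceosomes cannot be built or recycled without them, while a few sense viral RNA or act only in germ cells.

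Each library held 15056655 to 17211659 fragments, recovered from the steps in the FPKM values. The library labelled geniposide replicate 3 of Huh7 stood apart: its counts differed from the other treated Huh7 libraries by 38.87 and 40.01 chi-square units per degree of freedom, against 2.87 between those other libraries and 2.15 to 2.57 within each untreated group. In HepG2 the treated replicate 3 differed from its group by 5.45 and 6.06. Because the fit pools the spread, the treated Huh7 replicate 3 also enters the p-values of HepG2-labelled samples. Markers of the labelled tissue were mostly near 0. None of 8 hepatocyte-secreted protein genes reached 1 FPKM in any group mean, with ALB (albumin) at 6 fragments, AFP at 2 and APOB at 0 over all 12 libraries, and the hepatocyte transcription factors HNF4A and FOXA2 reached at most 0.252 and 0.379 FPKM. CEBPA, another such factor, was present at a mean of 12.4 FPKM untreated and 7.91 treated in Huh7-labelled and 4.47 and 3.92 FPKM in HepG2-labelled samples. The epithelial keratins KRT8 and KRT18 were present, in untreated Huh7-labelled samples at 20.53 and 15.45 FPKM and in untreated HepG2-labelled samples at 336 and 321 FPKM. The summed epithelial markers went from 35.9 to 37.4 FPKM untreated to 26.97 to 27.9 with geniposide in Huh7-labelled samples and from 647 to 667 to 343 to 381 FPKM in HepG2-labelled ones, and the part of CEBPA or of these markers in the results below was not tested. Leukocyte (0 of 4) and endothelial (0 of 3) markers stayed under 1 FPKM in every group mean, while 3 of 4 fibroblast markers passed it, mainly in HepG2-labelled samples, where their sum was 21.8 to 23.3 FPKM untreated and 22.7 to 23.1 treated. The groups are therefore called Huh7-labelled and HepG2-labelled. In such bulk samples fewer cells of a type and less RNA per cell cannot be told apart.

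The members share an ATPase core whose motif II gave the family its names. It is shown here in the coding sequence of the members on which the results turn, as 42 bases from the GENCODE 29 transcripts (GRCh38, coding strand) with the 4 motif codons in capitals:
DHX9: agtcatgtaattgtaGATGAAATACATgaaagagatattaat
DHX36: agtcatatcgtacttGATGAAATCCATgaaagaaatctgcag
DHX37: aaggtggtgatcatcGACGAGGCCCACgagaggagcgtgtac
DHX30: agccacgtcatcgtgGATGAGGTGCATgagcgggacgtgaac
DDX23: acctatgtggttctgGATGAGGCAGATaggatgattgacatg
DDX46: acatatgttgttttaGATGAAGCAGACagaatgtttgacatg
DDX5: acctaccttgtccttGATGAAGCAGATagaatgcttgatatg
DDX17: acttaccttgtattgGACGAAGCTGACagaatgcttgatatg
DDX21: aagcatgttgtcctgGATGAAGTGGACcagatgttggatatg
DDX50: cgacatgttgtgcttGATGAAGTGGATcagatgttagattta
DDX39A: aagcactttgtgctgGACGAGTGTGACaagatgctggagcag
DDX39B: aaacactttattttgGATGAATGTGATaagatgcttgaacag
DDX3X: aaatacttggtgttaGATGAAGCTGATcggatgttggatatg
DDX28: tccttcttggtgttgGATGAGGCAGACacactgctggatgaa
DDX58: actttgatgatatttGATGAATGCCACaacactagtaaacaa
DDX60: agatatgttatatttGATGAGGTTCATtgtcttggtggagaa
The capitals translate to DEAD in DDX23, DDX46, DDX5, DDX17, DDX3X and DDX28, to DEAH in DHX37, to DEIH in DHX9 and DHX36, to DEVH in DHX30 and DDX60, to DEVD in DDX21 and DDX50, to DECD in DDX39A and DDX39B and to DECH in DDX58. Over all 54 members the motif read DEAD in 29 and DEAH in 9, the latter including DDX11, and no match was found in DHX32 and DHX58. The close pairs, DDX5 with DDX17, DDX21 with DDX50 and DDX39A with DDX39B, carry the same 4 amino acids but differ in the codons, and none of these pairs shared a 50-base coding word, so fragments of their coding bases can be assigned to either gene.

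Most tested members were lower in both lines after geniposide. Of the 48, 30 fell and 4 rose in Huh7-labelled samples, against 18.1% of all 15518 tested genes that fell and 16.4% that rose (limma, Benjamini-Hochberg adjusted p under 0.05 over all tested genes). In HepG2-labelled samples 33 fell and 8 rose, against 21.5% and 21.0% of all genes. Requiring a change of at least 0.5 on the log2(FPKM + 1) scale left 16 lower and 0 higher members in Huh7-labelled samples (background 5.90% and 6.01%) and 13 lower and 2 higher in HepG2-labelled ones (9.31% and 9.18%). The median member changed by -0.36 in Huh7-labelled and -0.38 in HepG2-labelled samples, where the median of all tested genes was 0 and 0.002. Fold changes here are differences of log2(FPKM + 1), which understate changes of low genes.

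Seen library by library, the median member lay 0.40, 0.40 and 0.26 log2 units below the untreated mean in treated Huh7-labelled replicates 1, 2 and 3, and 0.37 below in each treated HepG2-labelled library. Summed over all 54 members, the level was 1051 to 1065 FPKM in untreated and 754.5 to 870.3 FPKM in treated Huh7-labelled samples. For HepG2-labelled samples the sums were 991.8 to 1013 and 815.7 to 825.0 FPKM. The groups did not overlap in either line, and Huh7 replicate 3 was the treated library nearest to the untreated ones. Without it, 35 members fell and 4 rose in Huh7-labelled samples, while over all 15518 genes the falls also went from 2812 to 3651 and the rises from 2545 to 3503. Among genes of at least 5 FPKM the shares stood at 29 of 42 members lower against 27.4% of 9282 genes in Huh7-labelled and 31 of 42 against 30.8% in HepG2-labelled samples, so the members' counts lay above the background at this level of expression too. Scaling to TPM, which moved the share of higher calls over all genes from 47.5% to 61.6% in Huh7-labelled samples, moved it among the members from 11.8% to 14.7%.

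The falls fell largely on the same genes. In both lines 27 members were lower, against 9.25% of all tested genes, and 3 were higher, DDX50, DDX39B and DDX59, against 6.23%. DDX41 alone was lower in Huh7-labelled and higher in HepG2-labelled samples. Across the 48 members the changes in the lines had a Pearson r of 0.659 and a Spearman rho of 0.589, and across all genes 0.342 and 0.361, given as descriptions since genes of one library share its scaling. Without the treated Huh7 replicate 3 the joint count was 32 members, which held all 27 and added DDX21, DHX15, DHX33, DDX55 and DDX31, against 13.8% of all genes. Over the other settings it was 22 to 28.

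**Figure D1:**
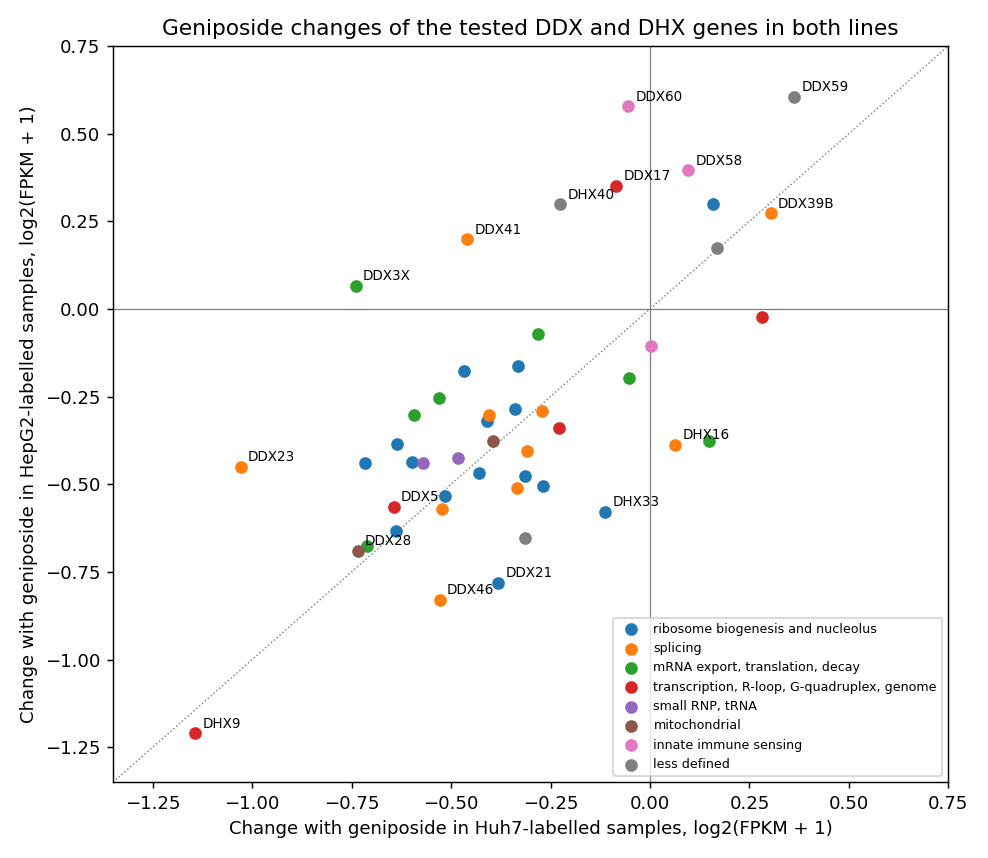
Each point is 1 of the 48 tested members, placed by its change with geniposide in Huh7-labelled (x axis) and HepG2-labelled samples (y axis) on the log2(FPKM + 1) scale and coloured by role. Most points lie in the lower left, led by DHX9 at -1.14 and -1.21, while DDX3X, DDX41 and DDX60 lie far above the dotted line of equal change.

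Among the helicases of transcription, R-loops, G-quadruplexes and genome maintenance, DHX9 (chromosome 1, 182839369 to 182887751, plus strand, GRCh38) had the largest change of any member. DHX9 unwinds RNA-DNA hybrids and double-stranded RNA and binds inverted Alu repeats. It read 80.1, 79.1 and 82.2 FPKM in the untreated and 37.99, 33.5 and 36.4 FPKM in the treated Huh7-labelled samples, and 65.5, 66.1 and 65.04 against 28.3, 28.02 and 26.99 FPKM in the HepG2-labelled ones. The groups were far apart in both lines, with Huh7 replicate 3 inside its treated group. The level fell by 1.14 on the log2(FPKM + 1) scale in Huh7-labelled (SE 0.05, adjusted p = 5.35e-07) and by 1.21 in HepG2-labelled samples (SE 0.05, adjusted p = 8.91e-08). DHX9 thus kept 0.447 and 0.424 of its untreated mean FPKM. The changes of the lines differed by -0.07 (95% interval -0.22 to 0.09; adjusted p = 0.519).

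DDX5 and DDX17 are close relatives that act as coregulators of transcription and splicing, and they did not move together. DDX5 read 71.5, 70.9 and 72.6 FPKM untreated and 40.2, 39.8 and 58.7 FPKM treated in Huh7-labelled samples, and 67.7, 69.5 and 69.95 against 46.7, 45.2 and 47.3 FPKM in HepG2-labelled ones. Its level fell by 0.64 (SE 0.12, adjusted p = 0.00184) and 0.56 (SE 0.12, adjusted p = 0.00279), with treated Huh7 replicate 3 between the groups. DDX17, the most abundant member in untreated Huh7-labelled samples, read 107, 111 and 114 FPKM untreated and 109, 105 and 98.99 FPKM treated in that line, where the groups overlapped (-0.08, adjusted p = 0.246). In HepG2-labelled samples it rose from 77.6, 74.2 and 75.5 to 99.6, 99.6 and 91.6 FPKM, a change of 0.35 (SE 0.052, adjusted p = 0.000345). The difference between the lines for DDX17 was 0.44 (SE 0.074, adjusted p = 0.00195).

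DHX36, which resolves G-quadruplexes, and DDX11, a DNA helicase of sister chromatid cohesion, are the class members of lower level described here. DHX36 went from 7.10 ± 0.48 to 5.90 ± 0.14 FPKM (SD, n = 3) in Huh7-labelled (-0.23, adjusted p = 0.0163) and from 7.03 ± 0.49 to 5.34 ± 0.26 FPKM in HepG2-labelled samples (-0.34, adjusted p = 0.00129). The Huh7 call of DHX36 was lost after TPM scaling (adjusted p = 0.096) and without untreated Huh7 replicate 3 (adjusted p = 0.071). DDX11 rose from 15.1 ± 0.4 to 18.7 ± 1.9 FPKM in Huh7-labelled samples (0.28, adjusted p = 0.012), a call lost when the line was fitted alone (adjusted p = 0.053). In HepG2-labelled samples DDX11 read 14.4 ± 1.1 and 14.2 ± 0.38 FPKM. A near copy, the pseudogene DDX12P, makes the DDX11 level uncertain.

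Helicases of splicing numbered 10, all tested: 7 fell and 1 rose in Huh7-labelled, 8 fell and 2 rose in HepG2-labelled samples. Of all tested genes 18.1% fell and 16.4% rose in the former and 21.5% and 21.0% in the latter. Splicing helicases act at successive steps of the spliceosome, from branch site recognition to release of the lariat. DDX23 (chromosome 12, 48829764 to 48852842, minus strand), the U5 helicase that readies the complex for activation, had the largest fall of the class in Huh7-labelled samples. It read 24.1, 23.5 and 25.3 FPKM untreated and 11.2, 11.2 and 11.8 FPKM treated there, and 34.4, 34.8 and 34.3 against 25.9, 24.9 and 24.2 FPKM in HepG2-labelled samples. Its fall of 1.03 (SE 0.045, adjusted p = 5.35e-07) in the first line and 0.45 (SE 0.045, adjusted p = 2.25e-05) in the other differed by 0.58 (adjusted p = 0.000156). DDX46, the branch site helicase of the U2 particle, read 16.7, 16.8 and 17.7 and then 11.8, 10.2 and 12.7 FPKM in Huh7-labelled and 20.5, 20.7 and 20.6 and then 11.5, 10.96 and 11.05 FPKM in HepG2-labelled samples. It fell by 0.53 (adjusted p = 0.000189) and 0.83 (adjusted p = 4.97e-06). Both genes had treated values below every untreated value of the same line.

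The other splicing members gave a more mixed picture. DDX42 fell by 0.52 and 0.57, with means of 17.9 ± 0.66 and then 12.1 ± 0.84 FPKM in Huh7-labelled and 15.5 ± 0.41 and then 10.1 ± 0.4 FPKM in HepG2-labelled samples (adjusted p = 7.91e-05 and 2.04e-05). DHX15, which takes the spent spliceosome apart, fell in HepG2-labelled samples by 0.41 (adjusted p = 0.0213), a call lost without untreated replicate 1 or 2 or treated replicate 2 or 3 of that line (adjusted p = 0.0539 to 0.0584). The HepG2 call of DHX15 was also lost in the fit without a filter (adjusted p = 0.0506) and kept without the treated Huh7 replicate 3. In Huh7-labelled samples DHX15 read 30.2, 29.8 and 29.3 FPKM untreated and 20.7, 20.8 and 31.3 FPKM treated, so that treated replicate 3 lay above the untreated values and the other treated replicates below them (-0.31, adjusted p = 0.0751; -0.50 and adjusted p = 1.48e-06 without it). DHX16, needed for the first catalytic step, fell by 0.39 in HepG2-labelled samples (adjusted p = 0.00257) and changed by 0.06 in Huh7-labelled ones (adjusted p = 0.59). DHX8, which frees the spliced mRNA, fell by 0.27 and 0.29 (adjusted p = 0.00787 and 0.00391; 0.0508 for Huh7-labelled samples fitted alone).

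DDX41 and DDX39B were the splicing members that rose. DDX41, a late spliceosome helicase and DNA sensor, read 20.6, 19.03 and 19.4 FPKM untreated and 14.2, 15.8 and 12.3 FPKM treated in Huh7-labelled samples, a fall of 0.46 (adjusted p = 0.000748). In HepG2-labelled samples it went from 33.6, 34.4 and 34.5 to 39.4, 39.5 and 39.1 FPKM, a rise of 0.20 (adjusted p = 0.0445) that did not pass the threshold without any 1 of 10 libraries in turn (adjusted p = 0.0545 to 0.116). The opposite moves differed by 0.66 (SE 0.1, adjusted p = 0.00109), a difference that held when each library was left out. DDX39B, which loads export factors and aids early splicing, rose from 19.7 ± 1.2 to 24.6 ± 3.3 FPKM in Huh7-labelled (0.30, adjusted p = 0.0141) and from 28.9 ± 0.55 to 35.1 ± 1 FPKM in HepG2-labelled samples (0.27, adjusted p = 0.0186). Its call was lost without untreated Huh7 replicate 1 (adjusted p = 0.0589), and in HepG2 without untreated replicate 3 (0.0583) or treated replicate 2 (0.0644). A readthrough gene covers 30.8% of the DDX39B exon bases on the same strand, so part of its fragments may have been counted elsewhere.

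**Figure D2:**
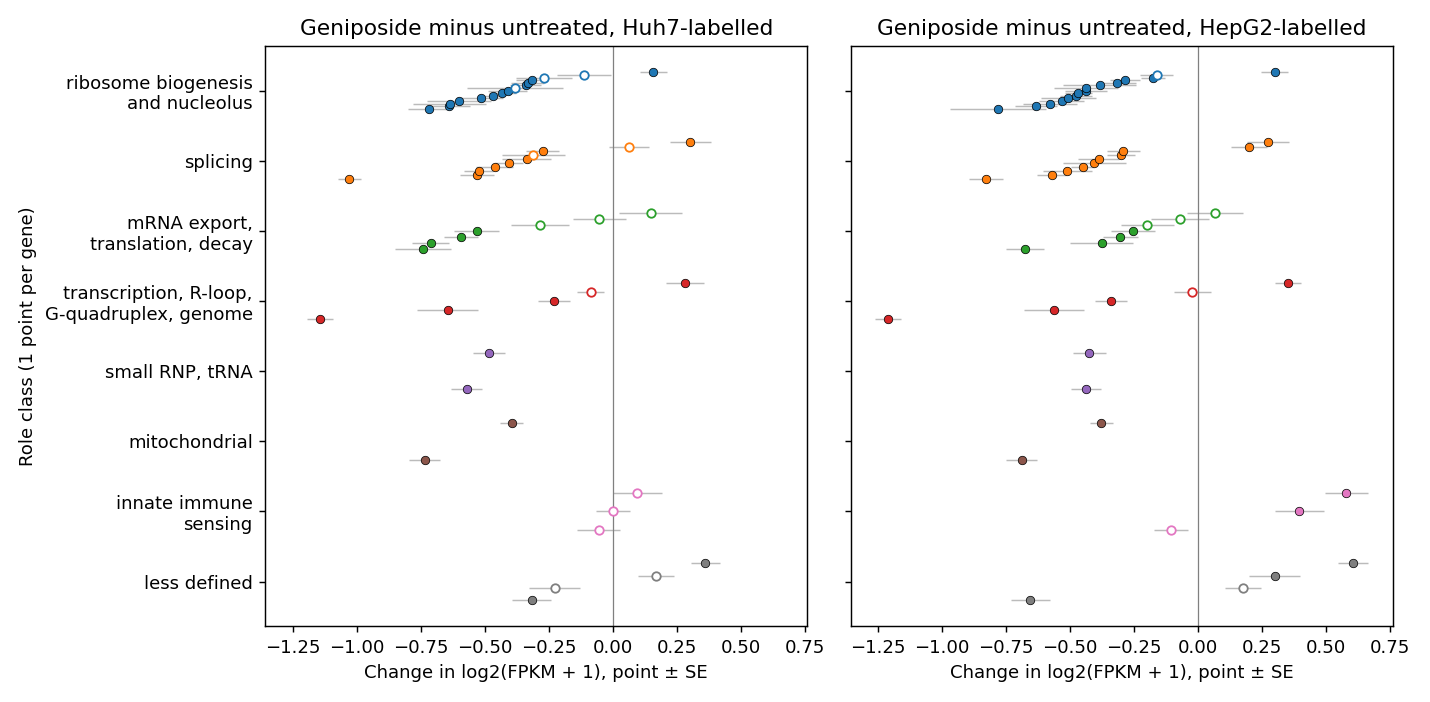
The tested members are grouped by role, with the change in log2(FPKM + 1) on the x axis as point ± SE, on the left for Huh7-labelled and on the right for HepG2-labelled samples. Filled points passed the threshold of 0.05 on the adjusted p and open points did not. All 4 small RNP, tRNA and mitochondrial members lie to the left in both panels, and the innate immune members do not.

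Ribosome biogenesis and nucleolar helicases were the largest class, 16 members with 15 tested. In Huh7-labelled samples 11 fell and 1 rose, and in HepG2-labelled samples 13 fell and 1 rose, with medians of -0.41 and -0.44. Of all tested genes 18.1% fell and 16.4% rose in the former and 21.5% and 21.0% in the latter. The class remodels the ribosomal RNA precursor as it is cleaved and folded into the subunits. DDX21, a nucleolar helicase that couples polymerase I and II transcription to rRNA processing, was the most abundant. It read 52.7, 53.97 and 53.4 FPKM untreated and 30.9, 30.8 and 30.2 FPKM treated in HepG2-labelled samples, a fall of 0.78 (SE 0.19, adjusted p = 0.00615). In Huh7-labelled samples it read 83.8, 85.3 and 88.2 FPKM untreated and 53.3, 53.1 and 99.4 FPKM treated. Treated replicates 1 and 2 lay near 53 FPKM, below every untreated value, and replicate 3 lay above them all. The change of -0.38 did not pass the test (adjusted p = 0.141), and without replicate 3 it was -0.68 (adjusted p = 3.12e-07). DDX50, the nucleolar neighbour and closest relative of DDX21, went the other way, from 26.9, 23.9 and 23.6 to 30.4, 30.6 and 31.2 FPKM in HepG2-labelled (0.30, adjusted p = 0.00109) and from 26.7, 27.6 and 27.6 to 29.8, 30.3 and 31.8 FPKM in Huh7-labelled samples (0.16, adjusted p = 0.0404). The Huh7 call of DDX50 was lost in 9 of the fits that left out 1 library, among them those without untreated replicate 1, 2 or 3 and without treated replicate 2 or 3 of that line (adjusted p = 0.0538 to 0.122).

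Most other members of the class fell in both lines, while DHX33 and DDX31 passed the test only in HepG2-labelled and DDX55 only in Huh7-labelled samples. DHX37, a DEAH helicase that releases the U3 particle from the small subunit precursor, read 18.7, 17.9 and 17.3 FPKM untreated and 10.6, 9.96 and 13.2 FPKM treated in Huh7-labelled and 14.6, 15.1 and 14.5 against 9.17, 9.23 and 9.03 FPKM in HepG2-labelled samples. It fell by 0.64 and 0.63 (adjusted p = 0.00021 and 0.00012). DDX18, a large subunit factor, read 21.5, 20.8 and 21.5 and then 11.7, 12.03 and 18.2 FPKM in Huh7-labelled samples and fell by 0.60 (adjusted p = 0.00391; 0.0597 with the line fitted alone). In HepG2-labelled samples DDX18 fell by 0.44 (adjusted p = 0.0157). DDX10, which acts on the small subunit, fell by 0.41 and 0.32 (adjusted p = 0.00187 and 0.0057), and DDX52, also a small subunit factor, by 0.31 and 0.48 (adjusted p = 0.00289 and 0.000131). DDX24 fell by 0.47 in Huh7-labelled (adjusted p = 4.87e-05) and by 0.18 in HepG2-labelled samples (adjusted p = 0.0109; 0.0913 after TPM scaling). DHX33 read 20, 18.9 and 19.5 against 12.7, 13.5 and 11.9 FPKM in HepG2-labelled samples, a fall of 0.58 (adjusted p = 0.0012). Its Huh7-labelled values, 19.7, 20.7 and 20.5 FPKM untreated and 17.8, 15.9 and 23.01 FPKM treated, overlapped through replicate 3 (-0.11, adjusted p = 0.456; -0.26 and adjusted p = 0.00524 without it). DDX47, the untested member, was listed at no more than 0.537 FPKM, and 36.5% of its exon bases are shared with APOLD1 on the same strand, so this level is uncertain.

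Of the 7 helicases of mRNA export, translation, storage and decay, 4 fell and none rose in each line (no member of the class had a positive change with an unadjusted p under 0.05 in either line). Of all tested genes 18.1% fell and 16.4% rose in Huh7-labelled and 21.5% and 21.0% in HepG2-labelled samples. DDX3X (chromosome X, 41333284 to 41364472, plus strand), which helps initiation on structured leaders and joins stress granules, separated the lines most. It read 32.7, 33.1 and 32.6 FPKM untreated and 17.3, 16.8 and 24.5 FPKM treated in Huh7-labelled samples, where replicate 3 was again the highest treated value but stayed below the untreated ones. In HepG2-labelled samples it read 40.9, 39.1 and 39.2 and 42.05, 41.2 and 41.7 FPKM. DDX3X fell by 0.74 in the first line (SE 0.11, adjusted p = 0.000549) and changed by 0.07 in the other (95% interval -0.18 to 0.31, adjusted p = 0.688). The difference was 0.81 (SE 0.15, adjusted p = 0.00371).

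DDX39A, the export factor whose closest relative is DDX39B, fell in both lines while DDX39B rose. It read 36.4, 35.7 and 34.5 FPKM untreated and 21.1, 19.4 and 23.7 FPKM treated in Huh7-labelled and 41.1, 44.6 and 42.5 against 25.4, 25.3 and 28.6 FPKM in HepG2-labelled samples. These are falls of 0.71 (SE 0.073, adjusted p = 6.23e-05) and 0.68 (SE 0.073, adjusted p = 4.09e-05). In untreated Huh7-labelled samples the pair stood at 35.5 ± 0.94 FPKM for DDX39A and 19.7 ± 1.2 FPKM for DDX39B (SD, n = 3), and with geniposide at 21.4 ± 2.2 and 24.6 ± 3.3 FPKM. The order of their means turned, but the treated means lay within overlapping SDs. The means also turned in HepG2-labelled samples, from 42.8 ± 1.7 and 28.9 ± 0.55 to 26.4 ± 1.9 and 35.1 ± 1 FPKM, where the SDs did not overlap. Levels of different genes depend on their listed lengths (3840 bases for DDX39A and 7007 for DDX39B). Part of the DDX39B fragments may also have been counted with the readthrough gene. The difference between the pair was not tested, and the pairs DDX39A with DDX39B, DDX21 with DDX50 and DDX5 with DDX17 were singled out after their values were seen.

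Other members of that class gave these values. DHX29, which helps the small subunit scan, fell by 0.59 and 0.30, and DHX34, a nonsense-mediated decay factor, by 0.53 and 0.25 (adjusted p = 0.0354 in HepG2-labelled samples, a call lost in several settings). DDX6, the decapping and storage helicase, read 14.1, 14.4 and 14.96 FPKM untreated and 10.3, 10.3 and 15.02 FPKM treated in Huh7-labelled samples. Treated replicate 3 lay just above the untreated values and the other treated replicates below them (-0.28, adjusted p = 0.0776), and without it DDX6 fell by 0.45 (adjusted p = 4.2e-05). In HepG2-labelled samples DDX6 changed by -0.07 (adjusted p = 0.671). The export helicases DDX19A and DDX19B share 46.3% and 46.2% of their 50-base coding words, so how fragments were split between them is uncertain. DDX19A changed by -0.05 in Huh7-labelled and -0.20 in HepG2-labelled samples (adjusted p = 0.753 and 0.158). The latter change was called without the treated Huh7 replicate 3 (adjusted p = 0.0224). DDX19B changed by 0.15 in Huh7-labelled (adjusted p = 0.396) and fell by 0.38 in HepG2-labelled samples (adjusted p = 0.0305; 0.113 without untreated HepG2 replicate 1).

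**Figure D3:**
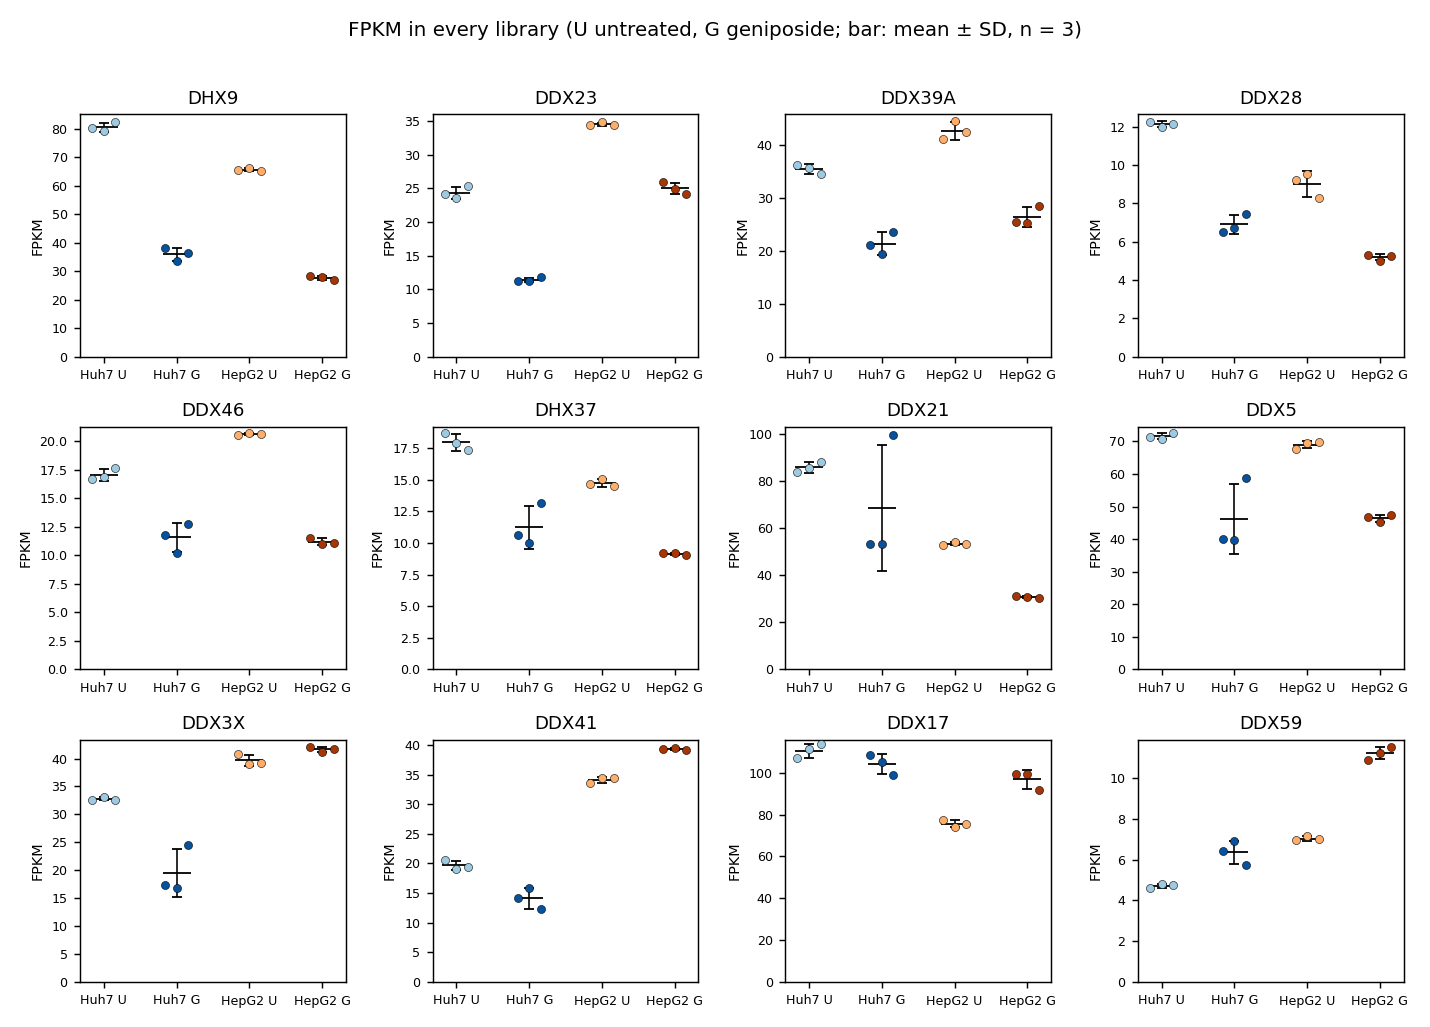
FPKM of 12 members in every library, with 1 panel a gene, points for libraries (U untreated, G geniposide) and bars for the mean ± SD of 3. DHX9, DDX23 and DDX28 show tight, separate groups in both lines, while DDX21 shows the treated Huh7 replicate 3 at 99.4 FPKM, above all untreated values.

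Small RNP, tRNA and mitochondrial members all fell in both lines, where 18.1% (Huh7-labelled) and 21.5% (HepG2-labelled) of all tested genes fell. DDX1, part of the tRNA ligase complex, read 51.7, 48.4 and 48.5 FPKM untreated and 34.8, 34.4 and 30.1 FPKM treated in Huh7-labelled and 58.03, 57.5 and 54.5 against 41.2, 41.9 and 41.6 FPKM in HepG2-labelled samples, that is, falls of 0.57 and 0.44 (adjusted p = 6.22e-05 and 0.000163). DDX20, the Gemin3 subunit of the SMN complex that loads Sm rings on spliceosomal RNAs, fell by 0.48 and 0.42 (adjusted p = 0.000254 and 0.000333). DDX28, a helicase of the mitochondrial large ribosomal subunit, read 12.3, 11.97 and 12.1 and then 6.52, 6.73 and 7.44 FPKM in Huh7-labelled and 9.20, 9.54 and 8.26 and then 5.33, 5.01 and 5.24 FPKM in HepG2-labelled samples. It fell by 0.73 and 0.69 (adjusted p = 1.75e-05 and 1.09e-05). DUS2 overlaps 22.4% of its exon bases on the opposite strand, and the library protocol does not mark strand. DHX30, which acts in the RNA granules of mitochondria, fell by 0.39 and 0.38 (adjusted p = 9.68e-05 and 6.54e-05), from 39.2 ± 0.15 to 29.6 ± 1.3 and from 27.2 ± 0.38 to 20.7 ± 0.59 FPKM.

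The innate immune members had other counts than these classes, with 0 of 3 tested members lower in either line and 2 of 3 higher in HepG2-labelled samples. In Huh7-labelled samples none of the 3 passed the test, and none had an unadjusted p under 0.05. Of all tested genes 18.1% and 21.5% fell in Huh7-labelled and HepG2-labelled samples, so 0 of 3 lower lies near these shares, and 21.0% rose in the latter. DDX60L, at or near 0 in Huh7-labelled samples, could not fall there. DDX58 reached 1 FPKM only in treated libraries, so it passed the filter through groups where it was higher. DDX60 (chromosome 4, 168216293 to 168318807, minus strand), an interferon-inducible helicase, read 1.61, 1.43 and 1.63 FPKM (162, 147 and 158 fragments) in untreated and 2.69, 3.16 and 2.62 FPKM (266, 302 and 277 fragments) in treated HepG2-labelled samples. The groups did not overlap, and the level rose by 0.58 (SE 0.084, adjusted p = 0.000292). In Huh7-labelled samples it read 0.522, 0.466 and 0.608 and 0.572, 0.490 and 0.367 FPKM (-0.06, adjusted p = 0.667), a gap between the lines of 0.63 (adjusted p = 0.00337). DDX58, which encodes RIG-I, the sensor of 5′-triphosphate RNA, rose from 0.649, 0.954 and 0.622 to 1.24, 1.48 and 1.14 FPKM in HepG2-labelled samples (0.40, adjusted p = 0.00712), at 39 to 91 fragments a library. In Huh7-labelled samples DDX58 read 0.942, 0.955 and 0.805 and 1.08, 1.13 and 0.890 FPKM (0.10, adjusted p = 0.49), and the difference between the lines, 0.30, did not pass the test (adjusted p = 0.13).

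DDX60L, the neighbouring relative of DDX60, was listed at 0 in 5 Huh7-labelled libraries and at 1 fragment in the other, but at 365 to 466 fragments in every HepG2-labelled one. There it read 2.31, 2.53 and 2.37 FPKM untreated and 2.05, 2.26 and 2.18 FPKM treated (-0.10, adjusted p = 0.246). Its protein-coding words shared only 0.825% with DDX60. DHX58, which encodes LGP2, stayed below the filter with 0 to 14 fragments a library. In HepG2-labelled samples it was listed at 0.122, 0.137 and 0.108 FPKM untreated and 0.249, 0.239 and 0.199 FPKM treated, without an overlap, and the fit without the filter gave 0.13 (adjusted p = 0.225).

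The 250 bases upstream of DDX60 and DDX60L (RefSeq, GRCh38.p14, written in the direction of transcription) are shown because the genes lie next to each other, each holds a pair of matches to the interferon-response letters GAAANNGAAA, in capitals, and only DDX60 passed the test with geniposide:
DDX60: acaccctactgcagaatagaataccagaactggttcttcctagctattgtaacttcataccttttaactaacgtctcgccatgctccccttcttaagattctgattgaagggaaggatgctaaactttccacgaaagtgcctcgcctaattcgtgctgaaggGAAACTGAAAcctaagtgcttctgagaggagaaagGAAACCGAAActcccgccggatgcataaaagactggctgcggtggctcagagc
DDX60L: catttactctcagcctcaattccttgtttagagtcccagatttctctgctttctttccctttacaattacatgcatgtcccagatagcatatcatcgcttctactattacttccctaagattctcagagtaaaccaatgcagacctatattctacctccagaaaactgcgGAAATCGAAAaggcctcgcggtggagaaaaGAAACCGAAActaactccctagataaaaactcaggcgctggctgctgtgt
They lie at chr4:168318753-168319002 and chr4:168480493-168480742, both on the minus strand. Upstream here refers to the RefSeq start. The gene coordinates given above for DDX60 reach into its stretch and take in its second match. Searching both strands, the letters GAAANNGAAA occurred in 3 of the 48 members with a promoter entry, DDX60, DDX60L and DHX15, and in 2.72% of 15843 protein-coding promoters of the same length. DDX58 and DHX58 have no entry. A match is a description of the letters and not a site.

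Genes of the RIG-I pathway formed a list of 20. Of 17 tested, 9 rose and 1 fell in HepG2-labelled and 2 rose and 4 fell in Huh7-labelled samples. Of all tested genes 21.0% rose and 21.5% fell in the former and 16.4% and 18.1% in the latter, where the list's counts lie near these shares. IRF9 had a group mean above 1 FPKM only in treated HepG2-labelled samples (1.09), so it passed the filter through the group where it was high. Group means of OAS1, OAS3, IFIT2, IFIT3 and IRF7 stayed under 1 FPKM in Huh7-labelled samples, where a fall could hardly be called. The counts of the lines are therefore not like for like. OAS1, which activates RNase L, went from 5.23 to 11.4 FPKM (0.99, adjusted p = 9.78e-07) in HepG2-labelled samples and was listed at 0 or near it in Huh7-labelled ones. IFIT2, an interferon-induced translation inhibitor, went from 1.45 to 4.03 FPKM (1.03, adjusted p = 9.57e-06) there. ZC3HAV1, an antiviral partner of RIG-I, fell in Huh7-labelled samples from 13.2 to 4.76 FPKM (-1.31, adjusted p = 5.3e-06) and stayed at 9.85 and 9.85 FPKM in HepG2-labelled ones. The ubiquitin-like ISG15 rose in both lines, by 0.57 and 0.72 (adjusted p = 0.000858 and 0.000112).

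**Figure D4:**
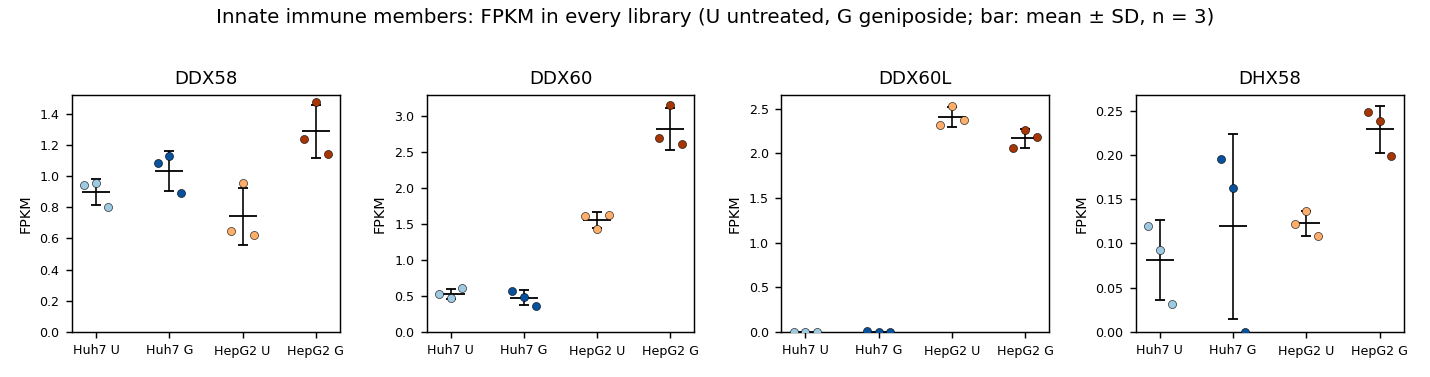
FPKM of the innate immune members in every library (points) with the mean ± SD of 3 (bars), U for untreated and G for geniposide. DDX58 and DDX60 are higher in all 3 treated than in all 3 untreated HepG2-labelled libraries, DDX60L is at or near 0 in Huh7-labelled libraries, and DHX58 lies below 0.3 FPKM throughout.

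Among the 4 members of less defined role, DDX59, mutated in an orofaciodigital syndrome, rose in both lines. It read 4.58, 4.81 and 4.73 FPKM untreated and 6.41, 6.89 and 5.75 FPKM treated in Huh7-labelled and 6.95, 7.15 and 6.99 against 10.9, 11.2 and 11.5 FPKM in HepG2-labelled samples, rises of 0.36 (SE 0.058, adjusted p = 0.000913) and 0.61 (SE 0.058, adjusted p = 1.84e-05). DDX59 was the only member higher in both lines whose calls held in every setting. DHX57 fell by 0.32 and 0.65 (adjusted p = 0.00886 and 6.61e-05), from 4.91 ± 0.13 to 2.76 ± 0.046 FPKM in HepG2-labelled samples, and its Huh7 call was lost with that line fitted alone (adjusted p = 0.0798). DHX32 read 10.3, 10.5 and 10.5 FPKM untreated and 12.7, 12.7 and 10.3 FPKM treated in Huh7-labelled samples, where replicates 1 and 2 lay above the untreated values and replicate 3 just below them (0.17, adjusted p = 0.0914; 0.27 and adjusted p = 0.000167 without replicate 3). In HepG2-labelled samples DHX32 changed by 0.175 and did not pass the test. That rise was called in some settings, among them the line fitted alone (adjusted p = 0.00499), TPM scaling (0.0218) and the fit without treated Huh7 replicate 3 (0.000703). The germ cell helicases DDX4, DDX25, DDX43 and DDX53 were listed at 0 to 5 fragments in each library and were not tested.

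The geniposide change differed between the lines for 14 members, tested as the HepG2-labelled change minus the Huh7-labelled one: 8 were more positive in HepG2-labelled samples and 6 more negative, against 14.1% and 13.7% of all genes. DDX3X, DDX60, DDX41, DDX23, DHX40, DDX17 and DDX24 made up 7 of the 8, at 0.81, 0.63, 0.66, 0.58, 0.53, 0.44 and 0.29. These 7 kept their call in every planned setting that gave this difference, while DHX29 did not. The 5 FPKM filter was not part of this check. None of the 6 more negative members, DHX16, DHX33, DDX46, DHX57, DDX11 and DDX19B, held in every setting, and TPM scaling left 2. Both shares lie near the background. Without the treated Huh7 replicate 3 the more positive count was 14, with DDX5 (0.26, adjusted p = 0.000665), DDX18 (0.35, adjusted p = 0.000413) and DDX6 (0.38, adjusted p = 0.00102) among the added members. The count over all 15518 genes also grew in that fit, from 2195 to 3036.

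Without treatment the lines differed in 35 of 48 members, 16 higher and 19 lower in HepG2-labelled samples, against 36.1% and 35.8% of all genes. Among splicing helicases 7 were higher and 3 lower, and among ribosome biogenesis helicases 1 was higher and 8 lower. DDX20 stood at 10.6, 10.1 and 10.7 FPKM in Huh7-labelled and 4.98, 5.22 and 5.54 FPKM in HepG2-labelled samples (-0.88, adjusted p = 2.35e-07), DHX30 at 38.98, 39.3 and 39.2 and 27.6, 27.3 and 26.8 FPKM (-0.51, adjusted p = 1.1e-06), and DHX32 at 10.3, 10.5 and 10.5 and 21.6, 20.6 and 20.4 FPKM (0.94, adjusted p = 3.85e-07). The levels of these 3 did not overlap between the lines. DDX60 was 0.74 higher in HepG2-labelled samples (adjusted p = 1.16e-05), and DDX23 0.49 higher (adjusted p = 1.9e-06). TPM scaling shifted the median of all genes between the lines by -0.27, from -0.011, and that of the members to -0.33, from -0.05, and turned the split to 9 higher and 28 lower (24.3% of member calls higher, from 45.7%, and 36.6% of all calls, from 50.2%). Relative to that shift the members stayed near the other genes.

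The most abundant members over the 12 samples were DDX17, DDX21, DDX5, DHX9 and DDX1. Ordered by mean FPKM in untreated Huh7-labelled samples the order was DDX17 at 111 ± 3.3, DDX21 at 85.8 ± 2.2, DHX9 at 80.5 ± 1.6, DDX5 at 71.6 ± 0.86 and DDX1 at 49.6 ± 1.9 FPKM (SD, n = 3). In untreated HepG2-labelled samples the order was DDX17 at 75.7 ± 1.7, DDX5 at 69.05 ± 1.2, DHX9 at 65.5 ± 0.52, DDX1 at 56.7 ± 1.9 and DDX21 at 53.4 ± 0.61 FPKM. Neighbours in these orders lay apart by more than their SDs, within each line and on this per-length scale.

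**Figure D5:**
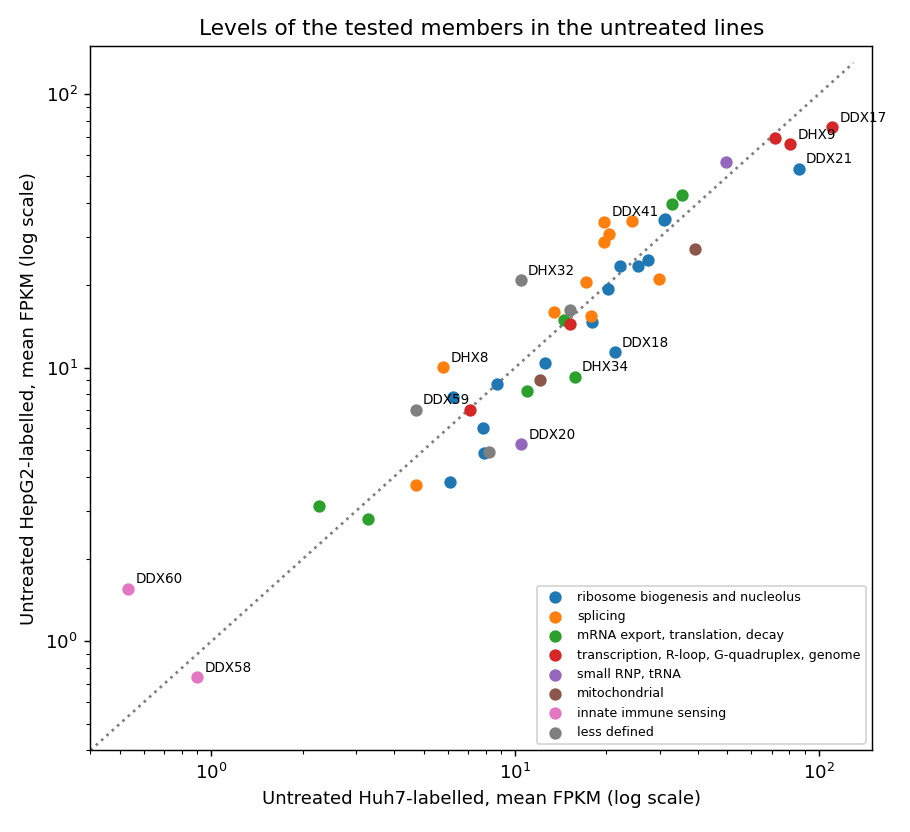
Mean FPKM of the tested members in untreated Huh7-labelled (x axis) and HepG2-labelled samples (y axis), both on log scales and coloured by role, with a dotted line of equal level; DDX60L is left off because it was listed at 0 in the former. DHX32, DHX8 and DDX60 lie above the line and DDX18, DDX20 and DHX34 below it.

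Grouped by motif II, 18 of the 24 tested DEAD members fell and 1 rose in Huh7-labelled samples, and 17 fell and 3 rose in HepG2-labelled ones. Of all tested genes 18.1% fell and 16.4% rose in the former and 21.5% and 21.0% in the latter. Of the 9 DEAH members 4 fell and 1 rose, and 7 fell and 1 rose. Both DEIH members fell in both lines, while in each of the DECD and DEVD pairs shown above one gene rose in both lines. The median change of the DEAD and the DEAH members was -0.48 and -0.27 in Huh7-labelled and -0.40 and -0.39 in HepG2-labelled samples.

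Cofactors and relatives of the members were counted in lists, chosen with earlier results of these data known. Their counts stand against 18.1% of all tested genes lower and 16.4% higher in Huh7-labelled and 21.5% and 21.0% in HepG2-labelled samples, and no list was tested against another. Of 19 tested RNA helicases of the same superfamilies under other names, 10 fell and 0 rose in Huh7-labelled and 9 fell and 4 rose in HepG2-labelled samples. No gene of that list rose at an unadjusted p under 0.05 in Huh7-labelled samples. AQR, an intron-binding helicase, fell by 0.50 and 0.53, and EIF4A2, a translation initiation helicase, rose in HepG2-labelled samples from 49.5 to 82.95 FPKM (0.73, adjusted p = 1.77e-06). Of 11 MIF4G and other DEAD-box cofactors 5 and 7 fell and none rose, at an adjusted or an unadjusted p under 0.05 (limma), and without the treated Huh7 replicate 3 the counts were 9 and 8. Over all genes the falls in that fit were 3651 and 4235, from 2812 and 3344. The scaffold EIF4G1 went from 100 to 53.8 FPKM in Huh7-labelled and from 120 to 68.2 FPKM in HepG2-labelled samples (adjusted p = 2.26e-06 and 1.11e-06). Of 20 G-patch and other DEAH cofactors 7 fell and 3 rose, and 8 fell and 2 rose, with GPATCH4, a nucleolar G-patch protein, at -0.96 and -1.23 (adjusted p = 7.63e-06 and 6.8e-07).

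The complexes of DDX20, DDX1 and the DDX39 pair were counted in the same way, against the same shares of all genes. Among 7 other SMN complex genes 4 fell and 0 rose in Huh7-labelled (0 also at an unadjusted p under 0.05) and 5 fell and 1 rose in HepG2-labelled samples, with GEMIN4 at -0.80 and -0.49 (adjusted p = 2.73e-06 and 1.9e-05). Among 6 tRNA ligase genes 4 fell and 0 rose (1 at an unadjusted p under 0.05), and 5 fell and 1 rose, with RTCB, the ligase itself, at -0.33 and -0.35 (adjusted p = 0.00225 and 0.00102). Among 11 tested TREX export genes 4 fell and 2 rose, and 4 fell and 0 rose (2 at an unadjusted p under 0.05), with the adaptor ALYREF going from 92.1 to 46.9 and from 54.5 to 26.5 FPKM (-0.98 and -1.01; adjusted p = 0.000106 and 4.23e-05). Of the 12 storage and decay partners of DDX6, 2 fell and 3 rose in Huh7-labelled samples, near those shares (4 and 2 without the treated Huh7 replicate 3), and 1 fell and 5 rose in HepG2-labelled ones (2 and 6 without it), among the latter ATXN2L, an ataxin-2 relative, at 0.88 and 0.50 (adjusted p = 0.000273 and 0.00498).

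Letters of known motifs were counted upstream of the members. In the 250 upstream bases, searched on both strands, the ETS letters CCGGAAGT occurred in 14.6% of the 48 matched members and 16.7% of the 24 matched members that fell in both lines, against 5.09% of protein-coding promoters. The E-box CACGTG occurred in 14.6% and 16.7%, against 7.84%, and the letters GCGCATGC in 8.33% and 12.5%, against 3.70%. TGATGNAA was found in 0 members (2.21% of promoters) and TATAAA in 2, or 4.17% (9.23%). The ETS letters were present upstream of DDX21 and DDX5 and equally of DDX50 and DDX39B, of which the first pair fell and the second pair rose in HepG2-labelled samples. The motifs can overlap, and these are counts of letters, not of bound factors.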

How the data were processed

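RNA-seq of poly(A) RNA was analysed from the authors' deposited gene table, which gives FPKM per gene for 12 samples. CASAVA, fastp and the hg38 build are named in the submitters' processing notes, and the sources used here give no aligner or counter. Dividing FPKM by the smallest step of each library gave whole fragments within 0.05 for 100% of values, and library totals of 15056655 to 17211659. The library totals in the authors' FPKM were 0.895 to 1.17 times the recovered sums, above 1 for Huh7-labelled and below it for HepG2-labelled samples, so levels between the lines carry this scaling. No value was shared closely enough between libraries of a group for them to be one library deposited again.

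The values were log2(FPKM + 1) transformed. limma 3.58.1 (R 4.3.3, trended variance, two-sided, 8 residual degrees of freedom) fitted 4 group means over all 12 samples to the 15518 genes with at least 1 FPKM in at least 3 samples, and p-values were adjusted by Benjamini-Hochberg over all of them at 0.05. The contrasts were: treated against untreated in each line, their difference, and the untreated lines. The fit was tested on simulated data.

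Named members are, per treatment comparison, up to 6 called in each direction with the smallest p, up to 4 for the other contrasts, a list of paralogs and class representatives, the 5 most abundant, and members whose change differed between the lines. The members, role classes and lists were chosen with earlier results of these data known. Coding sequences and gene coordinates are from GENCODE 29, whose gene coordinates match the deposited table for all 54 members, and upstream sequences from RefSeq. Alternatives were another pseudocount, other filters, TPM, median-of-ratios and quantile scaling, each line fitted alone, a replicate block, voom on recovered fragments and leaving out each library; TPM scaling together with leaving out the treated Huh7 replicate 3 was chosen after seeing the data. Replicate numbers do not pair the samples.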

Additional observations from a re-analysis of the deposited data

Results flagged for a closer look

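For 14 members the geniposide change differed between the lines by the test of the difference itself (HepG2-labelled change minus Huh7-labelled change, log2(FPKM + 1), limma, adjusted p under 0.05 over all tested genes). More positive in HepG2-labelled samples were DDX3X at 0.806, DDX41 at 0.659, DDX60 at 0.634, DDX23 at 0.579, DHX40 at 0.526, DDX17 at 0.436, DDX24 at 0.293 and DHX29 at 0.289. More negative were DDX19B at -0.526, DHX33 at -0.466, DHX16 at -0.451, DDX46 at -0.301, DDX11 at -0.305 and DHX57 at -0.34. DHX40, of less defined role, read 15.1, 14.7 and 15.5 FPKM untreated and 14.3, 14.2 and 10.2 FPKM treated in Huh7-labelled samples, where the fall was largest in replicate 3, and 16.5, 16.2 and 16.3 against 20.7, 20.8 and 19.5 FPKM in HepG2-labelled ones. The first 7 of the more positive members kept their call in every planned setting that gave this difference. The 5 FPKM filter was not part of this check, and lines fitted alone give no such difference. DHX29 lost its call in some. Each of the 6 more negative members lost its call in at least one setting; DHX16 lost it with the replicate block (adjusted p = 0.0634) and kept it when each library was left out. For 5 of the 14, DDX17, DDX41, DDX3X, DHX40 and DDX60, the change was negative in Huh7-labelled and positive in HepG2-labelled samples, though only DDX41 passed the test in both lines. What separates the lines here was not tested.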

How the results depend on the processing

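Members lower with geniposide kept the direction of their call in both lines in every setting that tested them. The call itself was kept by 24 of the 30 in Huh7-labelled and 28 of the 33 in HepG2-labelled samples in every planned setting but the 5 FPKM filter. That filter was left out of this count, and DHX35, among the 28, was lost from the joint falls under it. Leaving out each library in turn gave 28 to 35 lower members in Huh7-labelled and 29 to 35 in HepG2-labelled samples. The highest of both came without the treated Huh7 replicate 3, where the falls over all genes were also the most. Counts of higher members were small and less stable: 2 in Huh7-labelled samples with the lines fitted alone, 2 to 4 when each library was left out, and 5 to 9 in HepG2-labelled samples. The count of members more positive in HepG2-labelled samples ran from 7 to 14 when each library was left out, the 14 without the treated Huh7 replicate 3. The count over all genes was also the highest there, 3036 from 2195. The count of members more negative was 1 without a filter, 2 after TPM scaling, 3 after quantile normalization, 1 with the replicate block and 1 to 6 when each library was left out, from 6. Between the untreated lines, 9 members were higher after TPM scaling, 10 after quantile normalization, 9 with voom and 9 after TPM scaling without the treated Huh7 replicate 3, from 16, and 33 were lower in that last setting, from 19. The cause was not tested.

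Differences between the untreated lines changed sign for 6 of the named members whose difference passed the test in one direction or the other. Members not named were not followed here. Over all 48 tested members the positive differences went from 21 to 11 after TPM scaling. DDX1 gave -0.0853 after TPM scaling with or without the treated Huh7 replicate 3, -0.169 after quantile normalization and -0.0929 with voom. In the same order DDX39A gave -0.0129, -0.0357 and -0.0203, and DDX3X gave -0.00342, -0.0506 and -0.0106. DDX46 gave -0.00734 after TPM scaling, again with or without that library, and -0.0145 with voom. DDX24, not called at 0.087, gave -0.187 after TPM scaling with or without that library, -0.197 after quantile normalization and -0.196 with voom, all called, and was called at 0.087 when the untreated groups were compared alone or that library was left out. DDX6, not called at 0.041, was called at -0.231 after TPM scaling without that library.

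With the replicate number as a block the counts were 3 higher and 29 lower members in Huh7-labelled and 6 and 32 in HepG2-labelled samples, 8 and 1 for the difference and 15 and 18 between untreated lines. Same-numbered samples did not deviate together (correlations from -0.0615 to 0.0201). Depth limits DDX58, DHX58 and the germ cell members, which rest on few fragments. It also limits DDX60 and DDX60L in Huh7-labelled samples, where both stayed below 1 FPKM.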
